A study of Sus scrofa with 15 samples.

Results

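The 10 genes described here act in the egg: the secreted growth factors GDF9 and BMP15, the zona pellucida genes ZP2, ZP3 and ZP4, the secreted or egg-surface genes ASTL and OOSP2, the kinase gene MOS, and the transcription factor genes FIGLA and NOBOX. They were taken by gene symbol from the table of normalised read counts, whatever their values, out of 43294 entries. Of these 10 genes, 9 had an entry under their symbol, and OOSP2 was not analysed here. The values came from RNA-seq of 15 libraries in 5 groups of 3. PFF are primary porcine fetal fibroblasts of passage 2 to 5, the donor cells of the nuclear transfers. SCNT4c and SCNT8c are untreated somatic cell nuclear transfer embryos at the 4-cell and the 8-cell stage, in which a PFF nucleus was placed in an enucleated egg. SCNT4c-KG are 4-cell embryos that were injected with 1000 ng/µl of mRNA for KDM4A, an H3K9me3 demethylase, 5 h after activation and were kept in 0.1 µM of the EZH2 inhibitor GSK126 for the first 48 h. Their SCNT4c controls were untreated, so injection, KDM4A and GSK126 cannot be told apart. SCNT4c-TDG are 4-cell embryos cloned from PFF that carried a doxycycline-inducible vector for the DNA glycosylase TDG and had been selected with puromycin, and doxycycline was given at 500 ng/ml from 40 to 72 h. The SCNT4c controls carried no vector and received no doxycycline, and a group with doxycycline alone was not analysed here, so vector, selection, doxycycline and TDG cannot be told apart. The SCNT4c-TDG samples are also numbered apart from all other samples, with no untreated control numbered beside them. A difference between these sets of samples cannot be told apart from the treatment either.

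The egg makes its coat, the zona pellucida, while it grows in the follicle. In the pig this coat is built of the glycoproteins ZP2, ZP3 and ZP4, and FIGLA and NOBOX are transcription factors that switch on zona genes and other genes of the growing egg. GDF9 and BMP15 are ligands of the TGF-beta family by which the egg acts on the surrounding cumulus cells, MOS is the kinase that starts the MAPK cascade holding the mature egg at metaphase, and ASTL encodes ovastacin, a protease that cuts ZP2 after fertilisation. Removing the nucleus of an egg leaves its stored mRNA in place, so these transcripts can be read in cloned embryos whose own nucleus came from a fibroblast.

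The promoters of the zona genes are shown because all 3 genes had reads and their levels did not move together between groups. Each line gives the 200 bases before the annotated start in the genome Sscrofa11.1, read 5′ to 3′ on the strand of the gene, with every CANNTG in capitals. CANNTG is the E-box, the motif of the helix-loop-helix family to which FIGLA belongs, and it reads the same pattern on both strands. The windows are chr3:24863530-24863729 (plus strand) for ZP2, chr3:9944925-9945124 (minus strand) for ZP3 and chr14:53576938-53577137 (plus strand) for ZP4.
ZP2: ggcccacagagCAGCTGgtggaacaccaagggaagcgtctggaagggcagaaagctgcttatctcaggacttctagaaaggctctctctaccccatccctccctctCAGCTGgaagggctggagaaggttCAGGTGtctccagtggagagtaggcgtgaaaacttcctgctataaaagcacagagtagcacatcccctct
ZP3: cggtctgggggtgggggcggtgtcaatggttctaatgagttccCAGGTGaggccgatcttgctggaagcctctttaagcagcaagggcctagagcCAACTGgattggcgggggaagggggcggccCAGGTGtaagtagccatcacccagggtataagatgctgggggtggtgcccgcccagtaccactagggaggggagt
ZP4: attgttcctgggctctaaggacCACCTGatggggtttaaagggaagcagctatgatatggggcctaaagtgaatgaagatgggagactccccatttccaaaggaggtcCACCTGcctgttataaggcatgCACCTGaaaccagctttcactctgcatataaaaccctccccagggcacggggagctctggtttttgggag
Each window held 3 matches. Among 19556 promoters of protein-coding genes on the chromosomes, 6.32% of windows of this length held at least 3 matches and 53.3% held at least 1. The match nearest to the start began 70 bases before it in ZP2, 75 bases before it in ZP3 and 70 bases before it in ZP4. ZP2 and ZP3 had the letters CAGGTG there, and ZP4 had CACCTG, which is CAGGTG on the other strand. None of the 3 windows held TAATTA or TAATTG on either strand, the core letters of a NOBOX element, which 7.10% of the promoters held. A match is a string of letters and was not tested as a binding site.

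Recovered reads were 22224949 to 22868038 per library in PFF, 20460653 to 22530486 in SCNT4c, 12354649 to 15390472 in SCNT4c-KG, 17757929 to 19564459 in SCNT4c-TDG and 18083559 to 19549670 in SCNT8c. The untreated 4-cell libraries are called a, b and c because the labels number them in conflicting ways. The descriptions of the SCNT4c-KG samples also use the names that the value columns give to the untreated 4-cell embryos. Columns were therefore assigned to these groups by the sample titles, and the assignment rests on that choice. The enzymes of the treatments were highest among the embryos in the groups labelled with them. KDM4A lay at 1429 to 1476 normalised reads in SCNT4c-KG against 134 to 313 in SCNT4c, and TDG lay at 49857 to 59944 in SCNT4c-TDG against 939 to 2541 in SCNT4c. Each was also above SCNT4c in the other treated group, KDM4A at 555 to 918 in SCNT4c-TDG and TDG at 3886 to 4738 in SCNT4c-KG. SCNT8c replicate 3 stood apart, since over the tested features its log2 values had a mean Pearson r of 0.859 with the SCNT4c libraries and 0.772 with the other SCNT8c libraries, whereas SCNT8c replicate 1 had 0.796 and 0.840. Each embryo library is a pool of 30 embryos. The authors state that their experiments were repeated, but not whether the pools came from separate transfer sessions, so the p-values measure the spread between these libraries. The values are relative to the library, and in pooled embryos fewer cells and less of an mRNA per cell cannot be told apart.

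The zona genes and FIGLA carried reads under their own names, whereas GDF9, BMP15, ASTL, MOS and NOBOX were listed at 0 in all 15 libraries. At each of these 5 loci the table also held at least 1 transcript that the authors had assembled with StringTie and that carries no gene name, and those transcripts did have reads. Of the 4165 known genes that were alone at a locus with an assembled transcript, 11.02% were listed at 0 throughout, against 16.9% of the 10035 genes alone at a locus without one. Of 21 entries of common housekeeping genes, 1 (SDHA) was also listed at 0. A 0 in a gene entry is therefore given only as listed, and the reads of the assembled transcript are described as those of the locus. The transcript's own coordinates are not given in the table, so its reads cannot be assigned to the gene with certainty.

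A feature passed the test when limma gave it a Benjamini-Hochberg adjusted p under 0.05 and more than a 2-fold change, on the scale of log2(normalised read count + 1), which understates the change of low genes. The median log2 fold change over all 18942 features tested in embryos was -0.31 in SCNT8c and -0.30 in SCNT4c-KG, each against SCNT4c, and -0.26 in SCNT4c-TDG against SCNT4c. These 3 comparisons share the SCNT4c libraries and are not independent of each other. The shares of all features that had changed, given below, are limma's. In SCNT8c against SCNT4c limma called 1096 of the 18942 features, edgeR 842 and DESeq2 2677. In SCNT4c-KG these tools called 7054, 5831 and 7174, and in SCNT4c-TDG 6300, 5528 and 6886, each against SCNT4c.

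**Figure D1:**
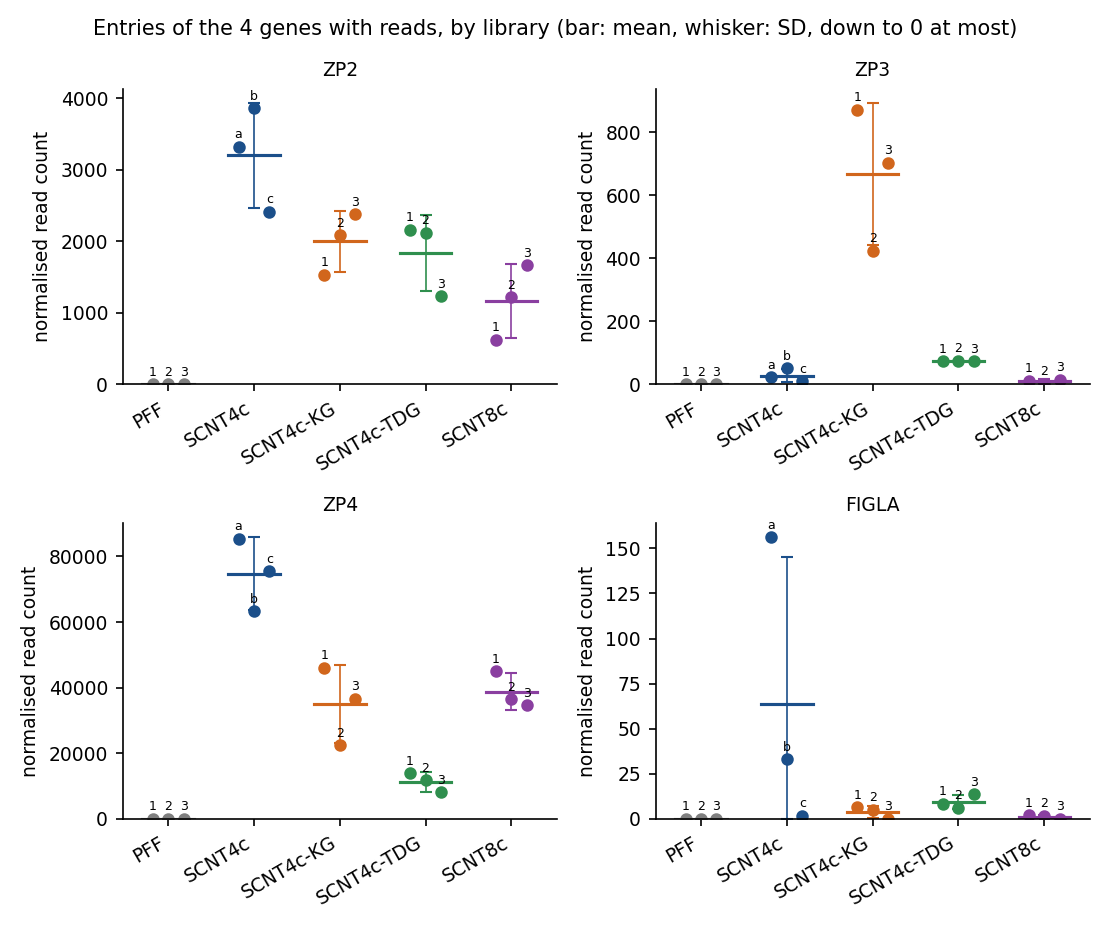
Normalised read count (vertical axes, linear, from 0) of ZP2, ZP3, ZP4 and FIGLA in each library of the 5 groups; points are libraries with their letter or replicate number, bars are means of 3 and whiskers are SD. ZP3 is highest in the 3 SCNT4c-KG libraries (425 to 872) while ZP4 is highest in the 3 SCNT4c libraries (63365 to 85407), and all 4 genes are at 0 in PFF.

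ZP4 was by far the most abundant zona transcript of the cloned embryos, and it fell in both treated groups. Its gene (gene22792, 12 exons, chr14:53577138-53584544, plus strand) is alone at its locus. In SCNT4c the libraries a, b and c held 85407, 63365 and 75580 normalised reads of ZP4, or 0.414% ± 0.0633 of the library (SD, n = 3). SCNT4c-KG replicates 1 to 3 held 46073, 22429 and 36648, SCNT4c-TDG held 13890, 11824 and 8021, and SCNT8c held 45081, 36542 and 34726. The SCNT4c libraries were above all 9 other embryo libraries, the SCNT4c-TDG libraries were below all of them, and SCNT4c-KG and SCNT8c overlapped.

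The mean of ZP4 in SCNT4c-TDG was 15.0% of that in SCNT4c, a log2 fold change of -2.76 ± 0.29 (SE, limma's adjusted p = 6.07e-06). In SCNT4c-KG it was 46.9%, with a log2 fold change of -1.14 ± 0.29 (limma's adjusted p = 0.0062). That call rested on the fold limit, because without SCNT4c-KG replicate 2 the log2 fold change was -0.85 (adjusted p = 0.0415) and with edgeR it was -0.99 (adjusted p = 0.0174). At the 8-cell stage ZP4 was 51.9% of the 4-cell mean, and this difference did not pass the test (log2 fold change -0.95 ± 0.29, limma's adjusted p = 0.0615). PFF held no read of ZP4, so with 3 reads per library as the floor SCNT4c was at least 20283-fold higher.

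ZP2 was lower at the 8-cell than at the 4-cell stage, and its differences under the treatments did not pass the test. Its gene (gene5659, 18 exons, chr3:24863730-24877522, plus strand) overlaps TMEM159, which lies on the other strand, and whether the authors counted by strand is not given in the sources used here. The SCNT4c libraries a, b and c held 3321, 3862 and 2414 normalised reads of ZP2. SCNT4c-KG held 1532, 2088 and 2375, SCNT4c-TDG held 2162, 2122 and 1230, and SCNT8c held 626, 1220 and 1663. No library of the other embryo groups reached the lowest SCNT4c library, and those 3 groups overlapped with each other.

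From the 4-cell to the 8-cell stage ZP2 fell with a log2 fold change of -1.53 ± 0.37 (limma's adjusted p = 0.0332), the mean at the 8-cell stage being 36.6% of that at the 4-cell stage. The call was lost in 8 of 17 alternatives, among them edgeR (log2 fold change -1.29, adjusted p = 0.0603) and the fit of only these groups (adjusted p = 0.198), and without SCNT8c replicate 3 it was -1.84 (adjusted p = 0.00102). Against SCNT4c, the log2 fold change of ZP2 was -0.68 ± 0.37 in SCNT4c-KG (limma's adjusted p = 0.163) and -0.82 ± 0.37 in SCNT4c-TDG (limma's adjusted p = 0.103), neither past the test. TMEM159 on the opposite strand had log2 fold changes of -3.02 and -2.74 in the same comparisons and -0.27 at the 8-cell stage, and its part in the ZP2 values was not tested.

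ZP3 was scarce in untreated embryos and rose in SCNT4c-KG. Its gene (gene5395, 8 exons, chr3:9934760-9944924, minus strand) shares its locus with 1 assembled transcript. The SCNT4c libraries a, b and c held 22.9, 51.6 and 9.96 normalised reads of ZP3, from 29, 59 and 12 reads. SCNT4c-KG held 872, 425 and 704, SCNT4c-TDG held 73.6, 75.9 and 74.2, and SCNT8c held 12.1, 2.49 and 15.8. All SCNT4c-KG libraries were above all others, and the SCNT4c-TDG libraries, which lay close together, were above those of SCNT4c and SCNT8c, which overlapped.

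Against SCNT4c, ZP3 rose in SCNT4c-KG with a log2 fold change of 4.74 ± 0.72 (limma's adjusted p = 0.000158), a ratio of means of 23.7. This call held in all 16 alternatives. In SCNT4c-TDG the log2 fold change was 1.66 ± 0.72 and did not pass the test (limma's adjusted p = 0.0888). It passed as higher in 5 of 16 alternatives, namely quantile normalisation, equal library totals, DESeq2, the fit of only these groups and the fit without SCNT4c library b (adjusted p from 0.02 to 0.0492), and with the assembled transcript of the locus added it was -0.25 (adjusted p = 0.766). At the 8-cell stage it was -1.38 ± 0.72 (limma's adjusted p = 0.217). The assembled transcript at the ZP3 locus moved the other way from the gene entry in SCNT4c-KG. It held 90.7, 65.5 and 48.2 normalised reads in SCNT4c, 6.53, 20.3 and 4.27 in SCNT4c-KG, 8.36, 0 and 0 in SCNT4c-TDG, and 58.8, 16.6 and 62.3 in SCNT8c. It fell in SCNT4c-KG (log2 fold change -2.82 ± 1.01, limma's adjusted p = 0.0395, a call lost in 9 of 14 alternatives) and in SCNT4c-TDG (-4.99 ± 1.01, adjusted p = 0.00162). The sum of gene entry and assembled transcript still rose in SCNT4c-KG (2.81 ± 0.56, adjusted p = 0.00133).

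Levels of different genes were compared per kilobase of annotated exons, which is 2232 bases for ZP2, 1295 for ZP3 and 1679 for ZP4. In SCNT4c, ZP4 held 96.8% ± 1.1 of the zona transcripts (SD, n = 3), ZP2 held 3.19% ± 1.06 and ZP3 held 0.0504% ± 0.0444. The ZP3 share was 2.34%, 2.25% and 2.32% in the SCNT4c-KG libraries, 0.611%, 0.728% and 1.06% in those of SCNT4c-TDG, and at most 0.101% in any untreated embryo library. The ZP2 share was 10.4%, 11.8% and 10.2% in SCNT4c-TDG, above every other embryo library (1.03% to 6.40%). Per kilobase, ZP4 was 32.5 ± 10.01 times ZP2 in SCNT4c, 24.9 ± 13.4 times in SCNT4c-KG, 8.21 ± 0.70 times in SCNT4c-TDG and 54.4 ± 36.2 times in SCNT8c. Only the SCNT4c-TDG ratios stood below those of all other groups. The assembled transcript at the ZP3 locus, whose length is not given, was left out of these shares.

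**Figure D2:**
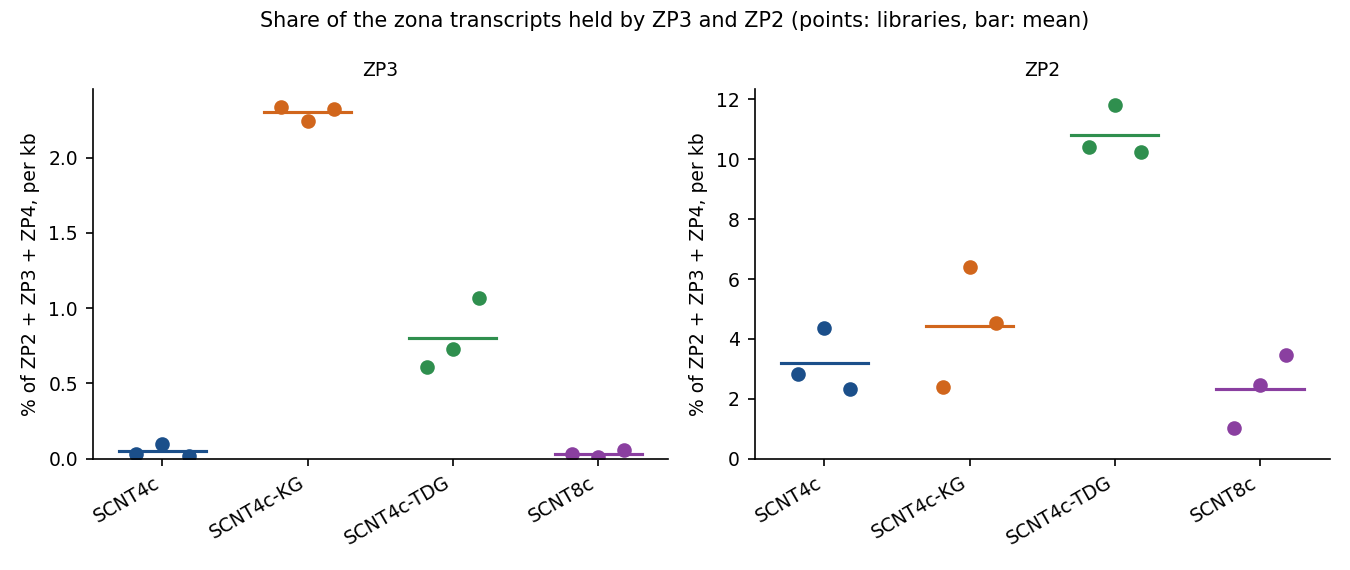
Share of ZP3 (left) and ZP2 (right) in the sum of ZP2, ZP3 and ZP4 per kilobase of exon, in percent (vertical axes, from 0), for the 12 embryo libraries; points are libraries and bars are means of 3. ZP3 is near 2.3% in SCNT4c-KG and at or under 0.101% in SCNT4c and SCNT8c, and ZP2 exceeds 10% in SCNT4c-TDG alone.

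FIGLA, the transcription factor that acts on zona promoters, had few reads and a wide spread within SCNT4c. Its gene (gene6348, 6 exons, chr3:71709580-71723760, plus strand) is alone at its locus. The SCNT4c libraries a, b and c held 156, 33.2 and 1.66 normalised reads of FIGLA, the last from 2 reads. SCNT4c-KG held 6.53, 5.08 and 0, SCNT4c-TDG held 8.36, 6.14 and 13.8, and SCNT8c held 1.87, 1.66 and 0. Every other embryo group therefore overlapped with SCNT4c, whose library c was as low as the 8-cell libraries. The log2 fold changes against SCNT4c were -2.76 ± 1.34 in SCNT4c-KG (limma's adjusted p = 0.115), -1.29 ± 1.34 in SCNT4c-TDG (adjusted p = 0.483) and -3.62 ± 1.34 in SCNT8c (adjusted p = 0.0983). None passed the test with limma and all libraries. FIGLA passed the filter on low values through SCNT4c alone (63.7 ± 81.6, SD, n = 3), and mostly through library a. Without that library the SCNT4c mean was 17.4 and FIGLA was not tested, so the calls that other fits made are given as values only. DESeq2 called FIGLA lower in SCNT8c (-5.38, adjusted p = 0.00557) and in SCNT4c-KG (-3.84, adjusted p = 0.0203), and limma did so in SCNT4c-KG without SCNT4c library c (-4.36, adjusted p = 0.0154).

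The ligand loci differed in their response to SCNT4c-KG. At the GDF9 locus (chr2:135180425-135186299, which holds the 2-exon gene GDF9, gene4809, on the minus strand) the assembled transcript held 20046, 9639 and 8068 normalised reads in the SCNT4c libraries a, b and c. It held 5129, 2313 and 3346 in SCNT4c-KG, 1688, 1623 and 1396 in SCNT4c-TDG, and 4836, 3738 and 17778 in SCNT8c. All SCNT4c libraries were above all SCNT4c-KG libraries, which were above all SCNT4c-TDG libraries, and SCNT8c replicate 3 lay within the range of SCNT4c while the other 8-cell libraries lay below it. The transcript fell in SCNT4c-KG (log2 fold change -1.76 ± 0.50, limma's adjusted p = 0.012) and in SCNT4c-TDG (-2.89 ± 0.50, adjusted p = 0.000448). The first of these calls was lost without SCNT4c library a (-1.37, adjusted p = 0.0651) and without SCNT4c-KG replicate 2 (-1.48, adjusted p = 0.0596). PFF also had reads there, at 96.5, 89.2 and 106.

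At the BMP15 locus (chrX:44612404-44621360, which holds the 2-exon gene BMP15, gene27311, on the plus strand) the assembled transcript held 6344, 6010 and 6065 normalised reads in SCNT4c. It held 14063, 9884 and 16648 in SCNT4c-KG, 1389, 1311 and 832 in SCNT4c-TDG, and 2197, 1757 and 5388 in SCNT8c. No 2 of the 4 embryo groups overlapped, with SCNT4c-KG highest and SCNT4c-TDG lowest. Against SCNT4c it rose in SCNT4c-KG (log2 fold change 1.11 ± 0.37, limma's adjusted p = 0.0292) and fell in SCNT4c-TDG (-2.42 ± 0.37, adjusted p = 0.000184). The rise did not pass the test in 6 of 15 alternatives, with log2 fold changes from 0.77 to 1.32 over all of them. PFF held no read there, so SCNT4c was at least 1665-fold higher on the floor of 3 reads.

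The NOBOX locus (chr9:113347912-113360168, with the 6-exon gene NOBOX, gene17263, on the plus strand) fell under both treatments. Its assembled transcript held 223, 108 and 103 normalised reads in SCNT4c, 16.3, 12.7 and 49.9 in SCNT4c-KG, 6.69, 9.97 and 9.95 in SCNT4c-TDG, and 30.8, 10.8 and 106 in SCNT8c. SCNT4c lay above both treated groups, and SCNT8c replicate 3 overlapped with it. The log2 fold change was -2.57 ± 0.84 in SCNT4c-KG (limma's adjusted p = 0.0258, a call lost in 4 of 15 alternatives, each of them a library left out) and -3.81 ± 0.84 in SCNT4c-TDG (adjusted p = 0.00292).

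The ASTL locus had few reads, and with all libraries no difference between embryo groups passed the test there, although that between SCNT4c-TDG and SCNT4c did in the fit of only these groups (adjusted p = 0.0173), where the transcript passed the filter on low values through SCNT4c alone. Its gene (gene6100, 9 exons) lies within chr3:47058104-47072379, and the assembled transcript held 25.2, 23.6 and 30.7 normalised reads in SCNT4c, 0, 10.2 and 14.2 in SCNT4c-KG, 1.67, 4.60 and 5.36 in SCNT4c-TDG, and 0.934, 0 and 37.0 in SCNT8c. SCNT4c lay above both treated groups, and SCNT8c replicate 3 lay above SCNT4c. The log2 fold changes against SCNT4c were -2.30 ± 1.35 in SCNT4c-KG (limma's adjusted p = 0.186), -2.58 ± 1.35 in SCNT4c-TDG (adjusted p = 0.151) and -2.71 ± 1.35 in SCNT8c (adjusted p = 0.197).

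MOS is a gene of 1 exon (gene7533, chr4:75739402-75741076, plus strand) inside a locus that the table draws from 75646572 to 75762098, with PLAG1, LOC110260293 and 3 assembled transcripts. LOC110260293 overlaps MOS on the opposite strand, so the reads of these transcripts cannot be given to MOS. Transcript 1 held 2436, 2283 and 2143 normalised reads in SCNT4c, 1098, 805 and 1083 in SCNT4c-KG, 319, 382 and 614 in SCNT4c-TDG, and 307, 140 and 2230 in SCNT8c. The treated groups lay below SCNT4c and did not overlap with each other, and SCNT8c replicate 3 alone of its group lay within the range of SCNT4c. Transcript 1 fell in SCNT4c-TDG (log2 fold change -2.43 ± 0.69, limma's adjusted p = 0.0131, and 0.0538 without SCNT4c-TDG replicate 1), and its difference in SCNT4c-KG did not pass the test (-1.21 ± 0.69, adjusted p = 0.173), although it did in the fit of only these groups (adjusted p = 0.00172). Transcripts 2 and 3 stayed at or under 37.6 and 13.7 normalised reads in every library. Transcript 2 held 0, 0 and 8.30 in SCNT4c, 37.6, 10.2 and 11.4 in SCNT4c-KG and 21.7, 10.7 and 10.7 in SCNT4c-TDG. Its log2 fold changes of 3.05 ± 1.31 in SCNT4c-KG (adjusted p = 0.0766) and 2.80 ± 1.31 in SCNT4c-TDG (adjusted p = 0.11) did not pass, and of the alternatives run they passed only without SCNT4c library c (4.13, adjusted p = 0.0349, and 3.87, adjusted p = 0.0496). The named neighbours were different: PLAG1 averaged 78.5 ± 39.9 in SCNT4c and 42.9 ± 9.2 in PFF, and LOC110260293 averaged 12.5 ± 17.4 and 157 ± 13.

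**Figure D3:**
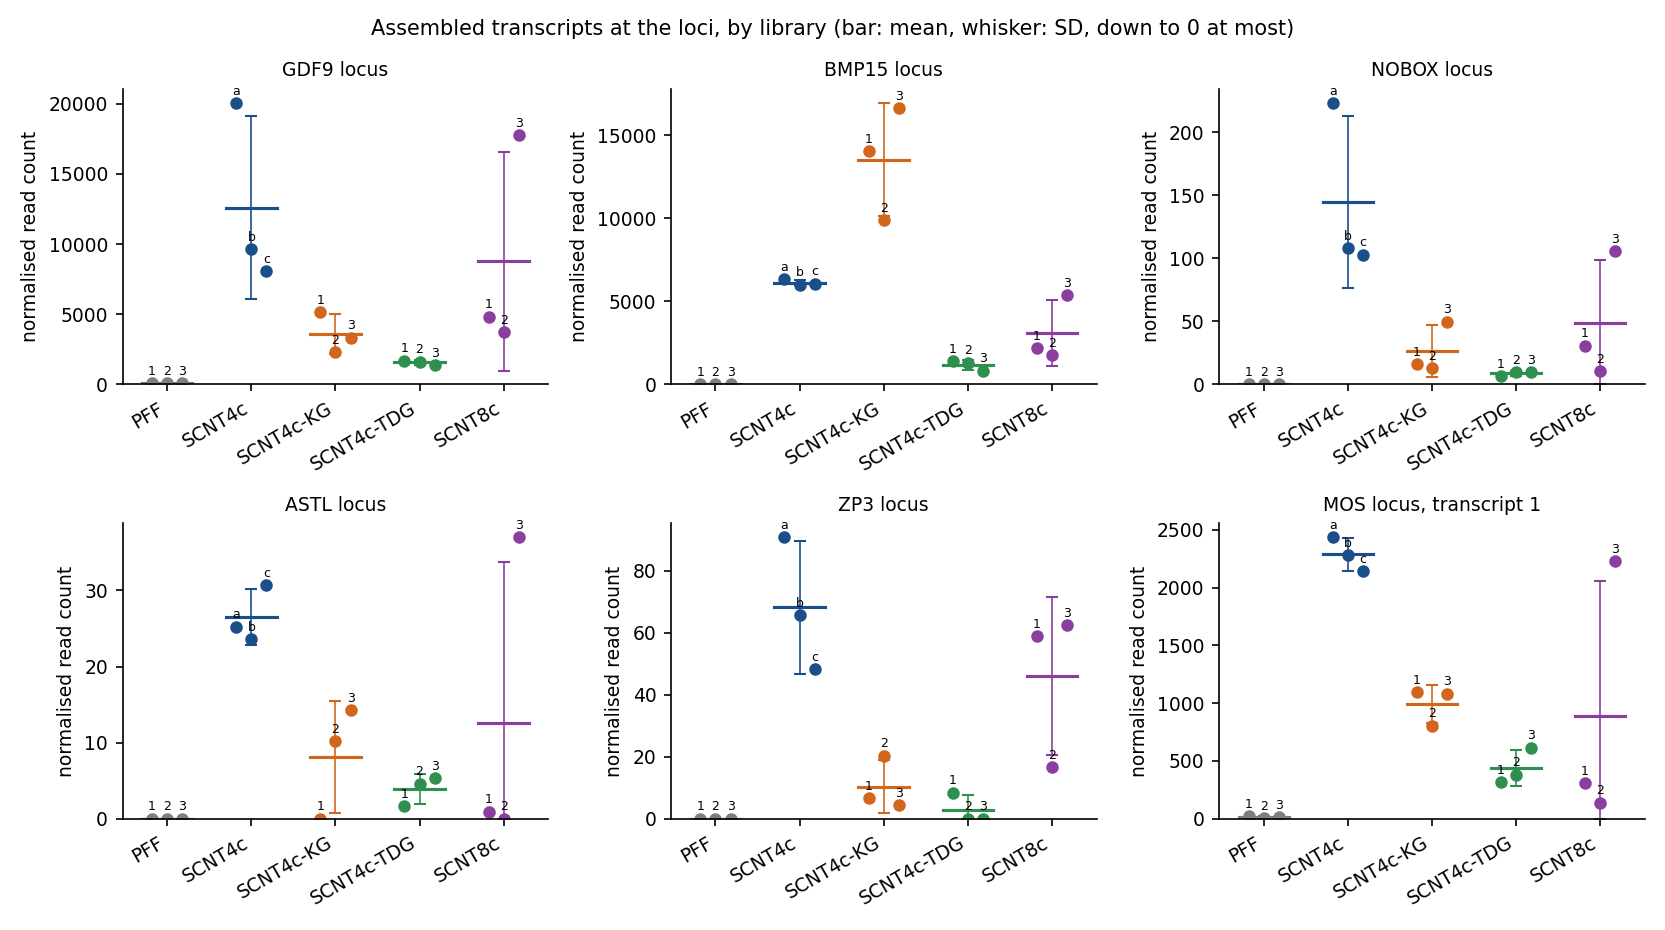
Normalised read count (vertical axes, linear, from 0) of the assembled transcripts at the GDF9, BMP15, NOBOX, ASTL and ZP3 loci and of transcript 1 at the MOS locus in each library; points are libraries with their letter or replicate number, bars are means of 3 and whiskers are SD. At the BMP15 locus the SCNT4c-KG libraries (9884 to 16648) are the highest, and for the GDF9, BMP15, NOBOX and ASTL loci and transcript 1 at the MOS locus SCNT8c replicate 3 is the highest library of its group.

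Counted together, 4 of the 9 listed genes could be tested in embryos, FIGLA among them only through its SCNT4c values. Between SCNT4c-KG and SCNT4c, 1 of these 4 rose (ZP3) and 1 fell (ZP4), where 37.2% of all features tested had changed, 17.6% higher and 19.6% lower. The libraries did not overlap between the groups for 3 of the 4 genes (ZP2, ZP3 and ZP4), against 53.9% of all features. Of the 7 assembled transcripts tested at the loci, 1 rose (BMP15 locus) and 3 fell (GDF9, NOBOX and ZP3 loci). Between SCNT4c-TDG and SCNT4c, where 33.3% of all features had changed and 17.6% had fallen, 1 of the 4 genes fell (ZP4) and none rose, against 15.7% of all features that rose. ZP2, ZP3 and ZP4 again did not overlap, against 58.4% of all features. There 5 of the 7 assembled transcripts fell, those of the GDF9, BMP15, NOBOX and ZP3 loci and transcript 1 of the MOS locus. The shares of the transcripts that fell lay above the background in these counts, and with so few features no test was made of that difference.

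Between SCNT8c and SCNT4c, ZP2 passed the test and the other 3 genes did not, against 5.79% of all features (2.62% higher and 3.16% lower). ZP2 and ZP4 did not overlap between the stages, against 23.5% of all features. None of the 7 assembled transcripts passed with limma or edgeR, nor with DESeq2 where it gave an adjusted p, which it did not for transcript 1 at the MOS locus, although 3 had an unadjusted limma p under 0.05. Transcript 1 at the MOS locus (-2.32 ± 0.69, adjusted p = 0.0567) passed at a pseudocount of 10, at a minimum mean of 50 and under quantile normalisation, with adjusted p of 0.0454, 0.0453 and 0.0475. Without SCNT8c replicate 3, 32.3% of all features tested passed (19.9% lower), and transcripts at 4 loci passed as lower: GDF9 (-1.45, adjusted p = 0.00713), BMP15 (-1.64, adjusted p = 0.000446), NOBOX (-2.82, adjusted p = 0.0147) and transcript 1 at MOS (-3.46, adjusted p = 3.49e-05). The ASTL locus transcript (-4.30) then passed the filter on low values through SCNT4c alone, so no call is drawn from it. Transcript 2 at the MOS locus passed as higher (3.55, adjusted p = 0.0257), which it did not in a fit of only these groups (adjusted p = 0.121). ZP3 and FIGLA did not pass without that library either, and ZP4 stayed under the fold limit (-0.87, adjusted p = 0.0316).

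**Figure D4:**
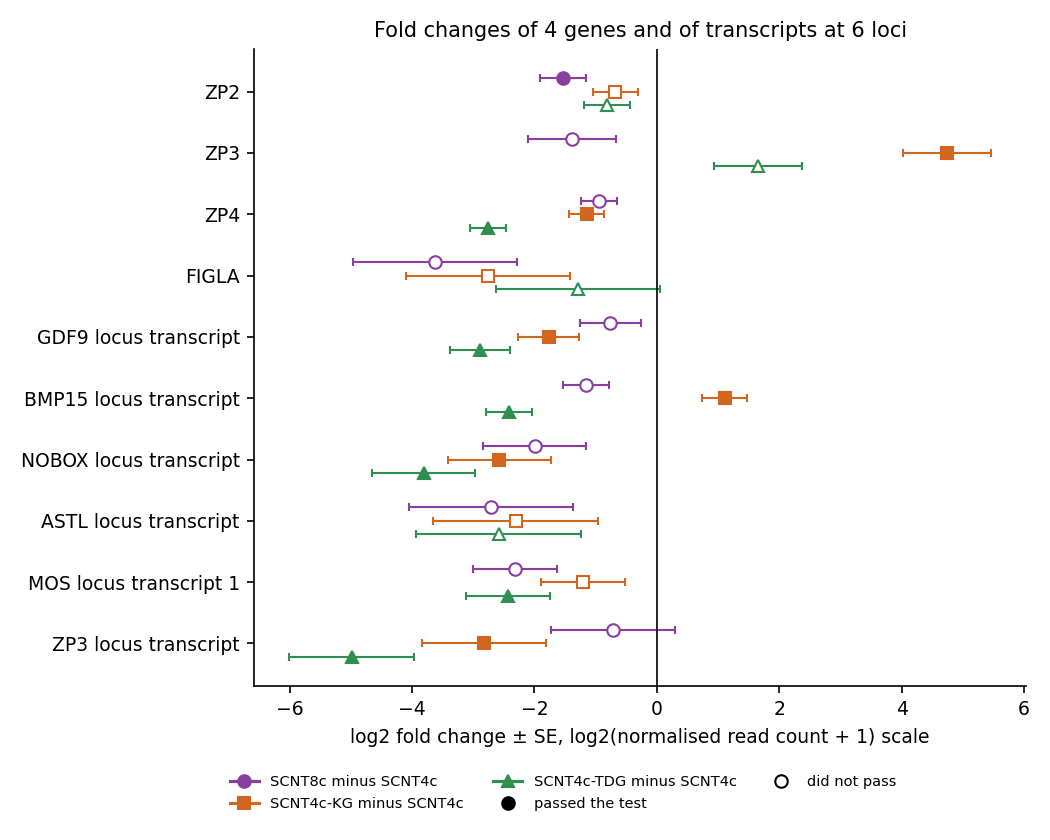
Log2 fold change against SCNT4c (horizontal axis) with SE (whiskers) for 4 genes and for assembled transcripts at 6 loci, in SCNT8c (circles), SCNT4c-KG (squares) and SCNT4c-TDG (triangles); filled symbols passed the test. Of the items drawn, ZP3 and the BMP15 locus transcript have a positive value in SCNT4c-KG (4.74 and 1.11) and ZP3 in SCNT4c-TDG (1.66); transcript 2 at the MOS locus, positive in both, is not drawn.

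Set directly against each other, the treated groups differed in 2 of the 4 genes, both lower in SCNT4c-TDG, where 16.2% of all features had changed, 7.07% higher and 9.13% lower. The same pair, ZP3 and ZP4, did not overlap, against 44.4% of all features. ZP3 was lower by a log2 fold change of -3.08 ± 0.72 (limma's adjusted p = 0.00909) and ZP4 by -1.62 ± 0.29 (adjusted p = 0.0017), the latter call being lost under quantile normalisation (-0.94, adjusted p = 0.0804). The largest difference was at the BMP15 locus, at -3.52 ± 0.37 (adjusted p = 3.97e-05), which held in all 16 alternatives. ZP2 was nearly level (-0.14 ± 0.37, adjusted p = 0.838), and its sign turned in 4 of 17 alternatives. At the GDF9 locus, where the libraries of the treated groups did not overlap, the difference was -1.12 ± 0.50 and did not pass the test (adjusted p = 0.14). It passed in the fit of only these groups (adjusted p = 0.00717) and in that fit with the replicate block (adjusted p = 0.00278). Transcript 1 at the MOS locus, at -1.22 ± 0.69 (adjusted p = 0.25), passed in the same 2 fits (adjusted p = 0.00715 and 0.00486).

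Against the donor fibroblasts, 78.2% of all features had changed in SCNT4c, 39.7% higher and 38.5% lower, and 84.5% did not overlap. ZP2, ZP3, ZP4 and FIGLA and the transcripts at the BMP15, ZP3, ASTL and NOBOX loci were at 0 in every PFF library. They passed the filter on low values through SCNT4c alone, which fixed their direction, so they are described with no test. For ZP2, ZP3 and FIGLA, SCNT4c was at least 868-fold, 7.63-fold and 17.3-fold higher on the floor of 3 reads. Without SCNT4c library a the bound for FIGLA was 4.73-fold, library c with its 2 reads being under the floor, and without library b the bound for ZP3 was 4.45-fold. At the GDF9 locus and at transcript 1 of the MOS locus PFF had reads, and the log2 fold changes were 6.89 ± 0.35 (limma's adjusted p = 7.72e-06) and 7.25 ± 0.41 (adjusted p = 1.12e-05).

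Genes that act with these 10 were read from fixed lists. Of the partners of the egg coat and of gamete fusion, 3 were tested in embryos. IZUMO1R, the egg receptor for the sperm protein IZUMO1, averaged 335 ± 262 in SCNT4c and 46.2 ± 12.8 in SCNT4c-TDG, where it fell (log2 fold change -2.59). That is 1 of the 3 tested, where 33.3% of all features had changed. In SCNT8c and in SCNT4c-KG, where 5.79% and 37.2% of all features had changed, 0 of the 3 passed with limma, edgeR or DESeq2, and 0 had an unadjusted limma p under 0.05. OVGP1, the oviduct glycoprotein, averaged 79.4 ± 36.2 in SCNT4c, and FETUB, an inhibitor of ovastacin, averaged 70.0 ± 23.2. PLAC1 averaged 2.33 ± 4.04 in SCNT4c and was not tested.

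In the list of GDF9 and BMP15 signalling, 16 of 24 genes were tested in embryos. In SCNT4c-KG 1 rose and 6 fell against SCNT4c, with a median log2 fold change of -1.49 over the list and -0.30 over all features, of which 17.6% had risen and 19.6% had fallen. In SCNT4c-TDG 4 rose and 1 fell, with a median of 0.23 against -0.26, and these 5 calls among 16 genes are near the 33.3% of all features that had changed. In SCNT8c, where 5.79% of all features had changed with limma, none passed with limma, while 4 had an unadjusted p under 0.05. Of the other tools, edgeR called 1 and DESeq2 called 3 there, against 842 and 2677 of all 18942 features. Of the 4 most abundant in SCNT4c, PCSK5, a convertase that trims growth factor precursors, fell in SCNT4c-KG (log2 fold change -1.47). SMAD2, which carries the GDF9 signal to the nucleus, and the type II receptors ACVR2A and ACVR2B had log2 fold changes between -0.70 and -0.38 in SCNT4c-KG and between 0.18 and 0.55 in SCNT4c-TDG, none past the test.

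Among the genes around MOS and the arrest of the egg, 8 of 16 were tested. WEE2, the egg kinase that restrains CDK1, averaged 83899 ± 21862 normalised reads in SCNT4c and fell in SCNT4c-KG (18561 ± 3618, log2 fold change -2.16), in SCNT4c-TDG (11823 ± 636, -2.79) and in SCNT8c (24931 ± 23283, -2.13). DUSP1, a phosphatase that switches MAPK off, rose in SCNT4c-KG (1.67) and in SCNT4c-TDG (1.41). RPS6KA3, a kinase below MAPK, rose in SCNT4c-TDG (1.55), and PLK1 was level (between -0.04 and 0.06 in the 3 comparisons with SCNT4c). In all, 2 rose and 1 fell in SCNT4c-KG, 3 rose and 1 fell in SCNT4c-TDG, and 1 fell in SCNT8c, where 37.2%, 33.3% and 5.79% of all features had changed. The count in SCNT4c-KG is at that background, and in SCNT8c edgeR called 0 of the 8 and DESeq2 called 1, so the call of WEE2 there was lost with edgeR.

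Of the oocyte transcription factors other than FIGLA and NOBOX, 8 were tested. LHX8, which acts with FIGLA and NOBOX in the young egg, averaged 2231 ± 334 in SCNT4c and fell in SCNT4c-TDG (651 ± 291, log2 fold change -1.85). KIT, the receptor by which the egg receives signals of its follicle cells, fell in SCNT4c-KG (-1.73), and TAF4B, a germ cell subunit of TFIID, rose in SCNT4c-KG (1.57) and in SCNT4c-TDG (2.27). TCF12, a helix-loop-helix partner, did not pass the test in embryos. In all, 1 rose and 2 fell in SCNT4c-KG and 1 rose and 1 fell in SCNT4c-TDG, where 37.2% and 33.3% of all features had changed. In SCNT8c, where 5.79% of all features had changed, none of the 8 passed with limma or edgeR, 5 had an unadjusted limma p under 0.05 and DESeq2 called 1.

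Of 12 other maternal transcripts of the egg that were tested, 7 fell and 1 rose in SCNT4c-TDG, 4 fell and 2 rose in SCNT4c-KG, and 4 fell in SCNT8c. Over all features 17.6%, 19.6% and 3.16% had fallen in these comparisons, and no test of the list was made. In SCNT8c edgeR called 2 of the 12 and DESeq2 called 3, so the 8-cell calls named here are limma's and some were lost with the other tools. The 19 genes of the list summed to between 279143 and 294367 normalised reads in SCNT4c, 123639 and 212522 in SCNT4c-KG, 62982 and 75903 in SCNT4c-TDG, and 38488 and 235708 in SCNT8c. The most abundant were KPNA7, the importin of the egg, and H1FOO, its linker histone. KPNA7 fell in SCNT4c-KG (log2 fold change -1.96), SCNT4c-TDG (-3.26) and SCNT8c (-1.84), and H1FOO passed only in SCNT4c-TDG (-3.25), with values of -0.44 in SCNT4c-KG and -1.72 in SCNT8c. PADI6, an enzyme of the egg's fibrous lattices, and UCHL1, a ubiquitin hydrolase, fell in all 3 comparisons, PADI6 most in SCNT4c-TDG (-4.35). UCHL1 was also abundant in the donor cells, at 14722 ± 308 in PFF against 18351 ± 3900 in SCNT4c, and did not pass the test between them.

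Markers of other cells were read beside these results. The 15 cumulus and granulosa markers summed to between 4349 and 4642 normalised reads in SCNT4c, 2156 and 5208 in SCNT4c-KG, 2083 and 3838 in SCNT4c-TDG and 4019 and 6450 in SCNT8c, and AMH, FOXL2 and PTX3 were at 0 in all embryo libraries. Of 7 tested, 1 rose and 2 fell in SCNT4c-KG, 1 fell in SCNT4c-TDG, and none passed in SCNT8c with limma, edgeR or DESeq2, 1 having an unadjusted p under 0.05. The most abundant in SCNT4c were KITLG, INHBA, VCAN and TNFAIP6. INHBA, an inhibin and activin subunit, fell in SCNT4c-KG (-1.06) and in SCNT4c-TDG (-1.54). The 15 fibroblast markers, led in PFF by COL1A1, COL1A2, FN1 and VIM, made up 15.6% to 16.1% of PFF libraries and at most 0.0439% of any embryo library. In embryos they were highest in SCNT4c (6491 to 7803) and lowest in SCNT4c-TDG (1921 to 2509), and of 11 tested, 3 rose and 6 fell in SCNT4c-KG, 1 rose and 5 fell in SCNT4c-TDG, and 3 fell in SCNT8c. The fibroblast markers called by edgeR were 6, 5 and 2 in these comparisons. Over all features 37.2%, 33.3% and 5.79% had changed in these comparisons, a background that holds for the counts of both marker lists. The part of these markers in the results above was not tested.

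The known genes whose pattern was most like the average of ZP2, ZP3, ZP4 and FIGLA over the 12 embryo libraries were SLIT3 (Pearson r = 0.950), UNC5D (0.920), MUC12 (0.890), ANO4 (0.854) and CHAC1 (0.853), out of 9803 genes compared. These values describe libraries that share groups and depth. The average itself was followed most closely by ZP2 (0.824) and least by ZP3 (0.421).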

How the data were processed

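Trimming with Trimmomatic 0.39, alignment to Sscrofa11.1 with STAR 2.5.3a (unique alignments only), assembly with StringTie 2.1.2 and counting with HTSeq were done by the authors. The deposited values are a normalised signal, namely counts divided by 1 factor per library. All of them (100%) lay within 0.01 reads of a whole number of reads, and these reads were recovered. Strand setting and batches are not given in the sources used here. After 241 repeats were removed from 43535 entries, those averaging 10 or more entered limma 3.58.1 (R 4.3.3) as log2(value + 1), in 1 fit of the 12 embryo libraries and another of SCNT4c and PFF. Depth is 12354649 to 22868038 reads per library, and floors of 3 reads cover counting error only.

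The genes and lists were chosen with earlier results of these data known. Named beside the 10 genes were the 4 genes of each list with the highest mean in SCNT4c (PFF for fibroblast markers), genes sharing a locus, and the 5 known genes with the highest Pearson r. H1FOO was also searched as H1-8. Alternatives were other pseudocounts, filters and scalings, edgeR 4.0.16 and DESeq2 1.42.0 on the recovered reads, sums per locus, fits of 2 groups, a replicate block and left-out libraries. The fit without SCNT8c replicate 3 of only 2 groups was chosen after seeing the data. Deviations of libraries with the same number correlated between -0.0611 and 0.195, so the numbers were not taken as pairs. Promoters were read from the Sscrofa11.1 genome with Python 3.11.15. Tests were tried on simulated data first.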

Additional observations from a re-analysis of the deposited data

Results flagged for a closer look

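These results are given again because the effects of SCNT4c-KG and SCNT4c-TDG differed by a direct test between these groups (limma, the contrast of SCNT4c-TDG with SCNT4c-KG). The BMP15 locus transcript had a log2 fold change of -3.52 (adjusted p = 3.97e-05), having risen in SCNT4c-KG and fallen in SCNT4c-TDG against the SCNT4c libraries that both share. ZP3 had -3.08 (adjusted p = 0.00909), and ZP4 had -1.62 (adjusted p = 0.0017). In each, all 3 SCNT4c-TDG libraries were below all 3 SCNT4c-KG libraries. Over all features tested, 44.4% did not overlap between these groups in either direction.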

How the results depend on the processing

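FIGLA passed the filter on low values through SCNT4c alone, so where it is counted here its calls are values only. Of the genes with an entry, the number that passed the test moved as follows. Between SCNT8c and SCNT4c it was 1 (ZP2), and it was 0 without the filter on low values, with edgeR and in the fit of only these groups, 2 (ZP2 and FIGLA) with DESeq2, and 0 to 1 with a library left out. Between SCNT4c-KG and SCNT4c it was 2 (ZP3 and ZP4), with 1 (ZP3) in edgeR, 2 (ZP3 and FIGLA) in DESeq2, 5 when the assembled transcripts were added to their genes, and 1 to 3 with a library left out, the 3 including FIGLA. Between SCNT4c-TDG and SCNT4c it was 1 (ZP4), with 2 (ZP3 and ZP4) under quantile normalisation, equal library totals, DESeq2 and the fit of only these groups, 5 with the assembled transcripts added, and 1 to 2 with a library left out. Between SCNT4c-TDG and SCNT4c-KG it was 2, with 1 under quantile normalisation and 3 with the transcripts added. Between SCNT4c and PFF it was 4, with 2 at a minimum mean of 50 and 9 with the transcripts added. With a library left out it was 2 to 4. These last counts are only listed and no conclusion is drawn from them, because the 4 genes were at 0 in every PFF library. Those genes entered the fit through SCNT4c alone, which fixed their direction. Of the 9 with the transcripts added, only those at the GDF9 and MOS loci had reads in PFF.

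Directions turned only for values that had not passed the test. ZP3 in SCNT4c-TDG against SCNT4c, at 1.66, was -0.25 with the transcript of its locus added, while it passed as higher in 5 of 16 alternatives. ZP2 in SCNT4c-TDG against SCNT4c-KG was 0.22 with equal totals, 0.042 with edgeR, 0.015 with DESeq2 and -0.32 to 0.12 with a library left out, being above 0 without SCNT4c-TDG replicate 3. In the same comparison the ASTL locus transcript was 0.54 with a pseudocount of 0.1 and -1.51 to 0.45 with a library left out, and transcript 2 at the MOS locus was 0.085 with equal totals and -0.58 to 0.31 with a library left out. The cause was not tested.

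The replicate block was fitted only for SCNT4c-TDG against SCNT4c-KG, because the SCNT4c libraries carry no replicate number free of conflict. With the block 2 genes passed, as without it, and the GDF9 locus transcript (-1.12, adjusted p = 0.00278) and transcript 1 at the MOS locus (-1.22, adjusted p = 0.00486) passed, as they did in the fit of only these groups. Of the features that passed, the percentage that were higher moved from 45.3% to 57.0% with quantile normalisation, 79.5% with edgeR and 70.9% with DESeq2 in SCNT8c against SCNT4c. With equal totals it moved from 43.6% to 64.2% in SCNT4c-TDG against SCNT4c-KG. Values under about 3 reads, as for FIGLA and the ASTL locus in several libraries, cannot show a difference at this depth.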
